A study of Mus musculus with 64 samples.

Results

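A set of 9 transcription factors and co-regulators, widely used to tell the layers of the neocortex apart, was followed through a series of mouse brain libraries: Cux1, Cux2 and Rorb for the upper layers, Fezf2, Bcl11b and Etv1 for layer 5, and Tbr1, Tle4 and Foxp2 for layer 6. They form a list of names and are 9 of the 18432 genes in the table. All 9 passed the filter on low values in every comparison. Projection neurons of the neocortex are born in an inside-out order, and each layer settles on its own set of regulators. Fezf2 and Bcl11b, also called Ctip2, set the identity of neurons that project below the cortex, Tbr1 sets that of corticothalamic neurons, and Cux1 and Cux2 shape the dendrites and spines of upper-layer neurons. Several of these genes stay on in the adult cortex, and several are used again by neurons of the hippocampus, where Bcl11b marks granule and pyramidal cells.

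The series compared heterozygous Cyfip2 Arg87Cys knock-in mice, called KI below, with wild-type (WT) littermates on C57BL/6N, at postnatal week (PWK) 1, 7, 14 and 28. Cyfip2 is a subunit of the WAVE complex, which drives branched actin assembly, and the mutated allele is present in every cell from conception. Frontal cortex and hippocampus were each taken from both hemispheres of the same mouse, with 4 mice in each age and genotype, which gives 16 groups of 4 libraries and 64 bulk RNA-seq libraries in all. Both sexes were used, and at the older ages the KI group holds only mice that lived to be sampled. The values below are the authors' DESeq2-normalized counts, summed over a gene's transcripts and not divided by gene length, so levels of different genes were not ranked against each other. Each library summed to between 29225576 and 32601227 normalized counts (median 31051098) and the number of reads behind it was not recoverable. Cyfip2 itself cannot tell the genotypes apart, since the knock-in changes 1 residue and leaves the gene in place. Its level did not pass the test in 7 of the 8 genotype comparisons and was lower in KI cortex at PWK 28 (mean 25727 against 34727, log2 difference -0.44 ± 0.09 SE, adjusted p = 0.0058, limma with Benjamini-Hochberg adjustment over all genes). This test, called at an adjusted p under 0.05, is used throughout.

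Some dissections stood apart in marker genes of neighbouring tissue. Drd2, a dopamine receptor of striatal projection neurons, was at 461 in cortex of WT replicate 1 at PWK 1 (median of the 8 libraries 67.1) and at 554 in KI replicate 2 at PWK 14 (median 43.5). Eomes, which marks glutamatergic neurons of the adult olfactory bulb, was at 119 in KI replicate 1 at PWK 7 (median 6.82). At PWK 14 it was at 99.3 in WT replicate 3 and 65.9 in KI replicate 3 (median 4.24), and at PWK 28 at 277 and 296 in WT replicates 3 and 4 (median 4.71). Each cortical result was therefore also computed without these 7 libraries, an alternative added after the data were seen. Libraries were picked against the median of their own age. WT replicates 1 and 2 at PWK 28, with Drd2 at 352 and 299, were therefore kept. In hippocampus at PWK 14, KI replicate 1 stood apart. Its summed level of 5 astrocyte markers was 300473 where the other 3 KI libraries were at 204148 to 211646. Its sum of 4 olfactory bulb markers was 5278 where the other 7 libraries were at 450 to 753. Of those 4, Eomes (9.71), Cdhr1 (137) and Doc2g (71.1) were within or below the range of the other libraries. The high sum therefore came from the fourth, Trh. KI libraries also differed among themselves in the summed level of 7 immediate early genes, which follow recent neuronal firing. In KI cortex it was 51937, 6866, 12446 and 14631 at PWK 14 (WT 15030 to 22036) and 52073, 7577, 33900 and 3905 at PWK 28 (WT 28321 to 32372). In KI hippocampus it was 31703, 6521, 26437 and 9446 at PWK 14 (WT 6559 to 13164) and 33414, 4638, 17642 and 3229 at PWK 28 (WT 13302 to 16860). KI replicates 1 and 3 were thus above all WT libraries in 3 of these 4 comparisons, and replicate 1 in the fourth.

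The 9 genes lie on 6 chromosomes of GRCm38. The upper-layer genes are Cux1 (ENSMUSG00000029705, chr5:136248135-136567490, minus strand), Cux2 (ENSMUSG00000042589, chr5:121856366-122050102, minus) and Rorb (ENSMUSG00000036192, chr19:18930605-19111196, minus). The layer 5 genes are Fezf2 (ENSMUSG00000021743, chr14:12342094-12348189, minus), Bcl11b (ENSMUSG00000048251, chr12:107910403-108003602, minus) and Etv1 (ENSMUSG00000004151, chr12:38779380-38870484, plus). The layer 6 genes are Tbr1 (ENSMUSG00000035033, chr2:61802930-61814114, plus), Tle4 (ENSMUSG00000024642, chr19:14448150-14598051, minus) and Foxp2 (ENSMUSG00000029563, chr6:14901349-15441977, plus). No other gene of the table overlaps any of them.

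The layer 5 factors are 3 of the 4 members that were called lower in KI cortex at PWK 28, as described below, and the bases upstream of a RefSeq transcript start of each, clear of annotated exons, are shown for that reason. They come from RefSeq on GRCm38.p6, written 5′ to 3′ on the gene's own strand. The stretches are chr14:12345960-12346115 for Fezf2 (156 bases, inside the gene's span between exons), chr12:38779832-38780081 for Etv1 (250 bases, inside the gene's span and clear of exons) and chr12:108003603-108003664 for Bcl11b (62 bases, just upstream of the gene). Capitals mark GGAA or its reverse TTCC, the core read by ETS factors such as Etv1 itself.
Fezf2: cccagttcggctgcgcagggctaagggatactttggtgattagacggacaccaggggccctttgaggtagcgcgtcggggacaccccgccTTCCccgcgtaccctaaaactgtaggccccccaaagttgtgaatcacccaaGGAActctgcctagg
Etv1: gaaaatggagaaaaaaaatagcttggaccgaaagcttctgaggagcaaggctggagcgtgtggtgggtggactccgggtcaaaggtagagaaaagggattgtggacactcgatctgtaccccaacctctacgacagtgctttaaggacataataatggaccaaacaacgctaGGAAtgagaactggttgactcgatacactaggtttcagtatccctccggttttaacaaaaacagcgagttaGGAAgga
Bcl11b: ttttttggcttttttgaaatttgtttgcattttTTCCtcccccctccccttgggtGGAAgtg
Each stretch held 2 matches to the core. These letters are common: 93.4% of 32851 RefSeq upstream windows of 250 bases held GGAA on either strand, as did 11 of the 12 windows of the 8 members with an entry. The longer nuclear receptor half-site AGGTCA, in 14.0% of all windows, and the T-box core GGTGTGA, in 3.3%, were in none of the 12. The Cut repeat core ATCGAT (0.7% of all windows) was found upstream of Cux2, the forkhead core TGTTTAC (3.2%) upstream of Cux1, and CCAAT (33.8%) upstream of Rorb and Tle4. All motifs were searched on both strands and their matches were not screened for overlap between motifs. A match is a string of letters and was not tested for binding.

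**Figure D1:**
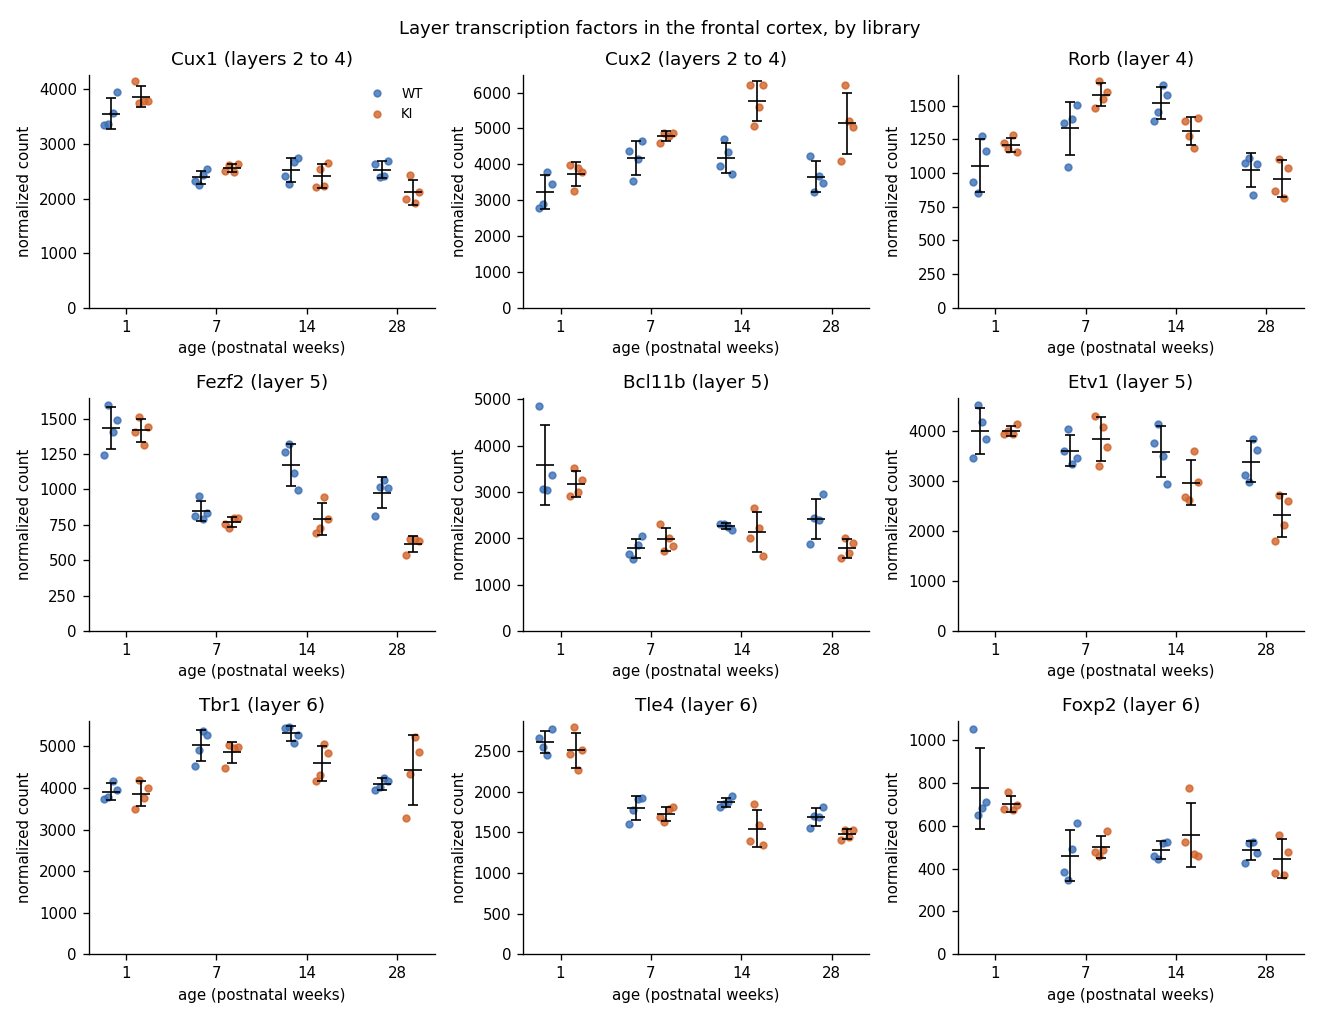
Normalized count of each of the 9 layer factors in frontal cortex (vertical axis, 1 panel per gene, each with its own scale) against age in weeks, with WT libraries in blue and KI libraries in orange, 1 dot per library and a black bar for the mean ± SD of 4. At PWK 28 the KI dots of Fezf2 (534 to 651) and Etv1 (1798 to 2726) lie below all WT dots, and at PWK 14 those of Cux2 (5068 to 6214) lie above them.

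In WT frontal cortex some factors fell after the first week, others rose, and Etv1 did not pass the test at any step. Between PWK 1 and PWK 7, 8 of the 9 passed the test, 5 lower and 3 higher, beside 65.5% of all genes tested. The 5 that fell came from every layer: Cux1, Bcl11b, Fezf2, Foxp2 and Tle4. The 3 that rose were Cux2, Rorb and Tbr1.

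Among the upper-layer genes, the Cut-domain paralogs Cux1 and Cux2 moved in opposite directions. Cux1 fell from 3558 ± 282 (SD, n = 4) at PWK 1 to 2388 ± 124 at PWK 7, a log2 change of -0.57 ± 0.07 (SE, adjusted p = 4.93e-07), and then stood at 2523 ± 219 and 2531 ± 153 at PWK 14 and 28. The 4 WT libraries at PWK 1 (3348 to 3954) were all above the 12 later ones (2258 to 2742). Cux2 rose from 3233 ± 469 to 4171 ± 475 (0.37 ± 0.11, adjusted p = 0.00482), with 4178 ± 428 at PWK 14 and 3653 ± 432 at PWK 28, and neither later step passed the test. Rorb, an orphan nuclear receptor of layer 4, rose from 1056 ± 196 to 1332 ± 198 (0.34 ± 0.13, adjusted p = 0.0243), reached 1517 ± 119 at PWK 14 and fell to 1024 ± 124 at PWK 28 (-0.57 ± 0.13, adjusted p = 0.00541). Its mean at PWK 28 thus lay next to that of PWK 1. Both calls on Rorb were lost without the libraries high in Drd2 or Eomes (0.29, adjusted p = 0.0647, and -0.43, adjusted p = 0.107), and the rise also without replicate 1 or replicate 4 of every age (adjusted p up to 0.144).

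The layer 5 regulators Fezf2 and Bcl11b fell steeply after the first week, while Etv1 did not pass the test at any step. Bcl11b, a zinc finger factor needed for corticospinal axon growth, went from 3582 ± 864 to 1780 ± 212 (log2 change -0.99 ± 0.13, adjusted p = 3.49e-06), then 2261 ± 68.7 and 2413 ± 434. Its spread at PWK 1 came from 1 library, since WT replicate 1, the one high in Drd2, held 4859 where the other 3 were at 3036 to 3363. Bcl11b is also abundant in striatal projection neurons. Fezf2, a zinc finger repressor upstream of Bcl11b, was the one member called between PWK 7 and PWK 14, where 5.31% of all genes were. It fell from 1432 ± 147 to 847 ± 71.0 (-0.75 ± 0.10, adjusted p = 2.4e-06), rose to 1174 ± 149 at PWK 14 (0.46 ± 0.10, adjusted p = 0.00983, lost at 0.0733 without replicate 3 of every age) and stood at 977 ± 111 at PWK 28 (-0.26 ± 0.10, adjusted p = 0.083). Etv1, an ETS factor of layer 5 neurons also called Er81, read 4000 ± 454, 3604 ± 308, 3584 ± 508 and 3388 ± 400 over the 4 ages, and neighbouring ages did not differ beyond that spread. Its change from PWK 1 to PWK 7 was -0.15 with a 95% interval of -0.36 to 0.07.

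The layer 6 genes split. Tbr1, a T-box factor, rose from 3914 ± 197 to 5024 ± 379 (0.36 ± 0.05, adjusted p = 8.08e-06), stood at 5317 ± 180 at PWK 14 and fell to 4098 ± 135 at PWK 28 (-0.38 ± 0.05, adjusted p = 0.000173). At PWK 14 its 4 libraries (5073 to 5460) were all above the 4 at PWK 28 (3957 to 4252). Tle4, a Groucho-family co-repressor, fell from 2611 ± 138 to 1803 ± 148 (-0.54 ± 0.06, adjusted p = 3.28e-07), followed by 1872 ± 54.6 and 1690 ± 108. Foxp2, a forkhead factor of corticothalamic neurons, fell from 775 ± 187 to 461 ± 120 (-0.76 ± 0.16, adjusted p = 0.000361) and then read 488 ± 40.6 and 486 ± 45.3. Foxp2 too was highest in the Drd2-high library at PWK 1, with 1053 against 652 to 712 in the other 3 WT libraries. Between PWK 14 and PWK 28, where 15.3% of all genes passed the test, Rorb and Tbr1 were the 2 members that did, and both fell.

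**Figure D2:**
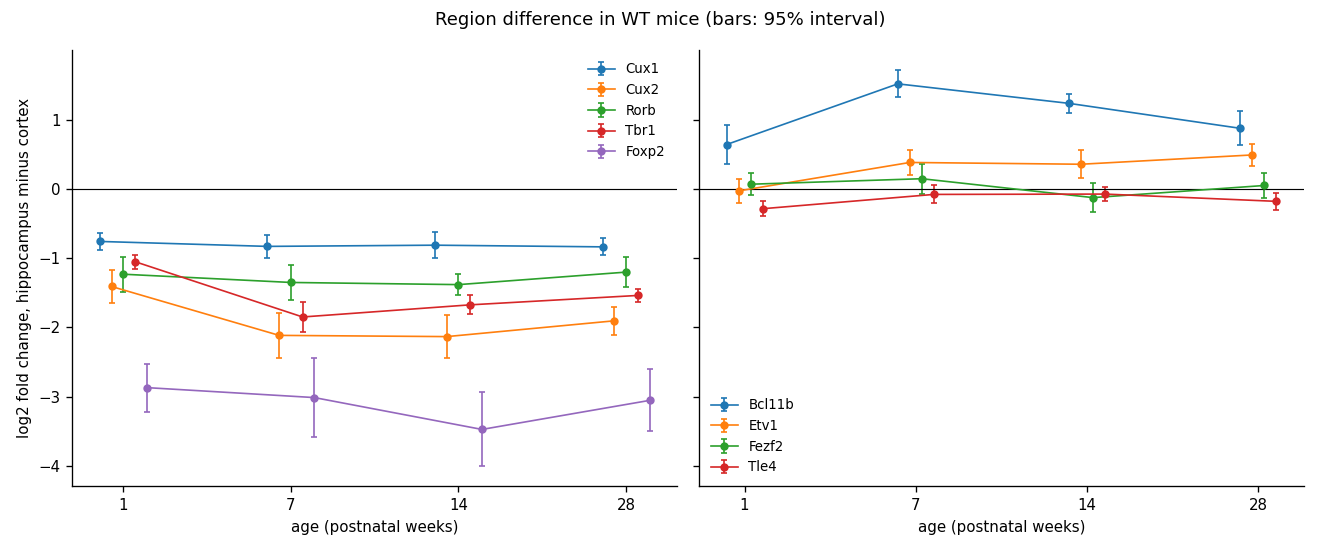
Log2 difference of WT hippocampus minus WT cortex (vertical axis) at each age in weeks (horizontal axis), with 95% intervals, for Cux1, Cux2, Rorb, Tbr1 and Foxp2 on the left and Bcl11b, Etv1, Fezf2 and Tle4 on the right. The first 5 stay below 0 at every age, from -0.76 for Cux1 to -3.47 for Foxp2, and Bcl11b stays above 0.

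The factors differed in how far they are shared with the hippocampus, a comparison that shows which of them mark neocortex in these dissections. Foxp2, Cux2, Tbr1, Rorb and Cux1 were lower in WT hippocampus at all 4 ages. Bcl11b was higher at all 4, Etv1 was higher from PWK 7 on, and Fezf2 did not pass the test at any age. Of all genes, 34.7%, 40.8%, 34.6% and 37.8% passed this test at PWK 1, 7, 14 and 28. The tissue labels held against defining markers: all 4 dentate granule cell markers were higher in hippocampus at every age (median log2 difference 3.05, 5.08, 5.70 and 5.18), and 11, 13, 13 and 13 of 17 layer markers that are not transcription factors were lower.

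Foxp2 had the widest gap, at 104 ± 15.1, 57.7 ± 20.6, 45.9 ± 18.9 and 60.1 ± 21.4 in hippocampus at PWK 1, 7, 14 and 28. The log2 differences at these ages were -2.87 ± 0.16, -3.01 ± 0.26, -3.47 ± 0.24 and -3.05 ± 0.20 (SE). Cux2 was at 1215 ± 155, 977 ± 221, 969 ± 238 and 974 ± 103, and its difference went from -1.41 ± 0.11 at PWK 1 to -2.13 ± 0.14 at PWK 14. Both genes were thus far lower in hippocampus in each library, since the highest hippocampal WT value of Cux2 (1370) lay below its lowest cortical WT value (2794). Tbr1 was at 1887 ± 60.1, 1403 ± 227, 1669 ± 144 and 1409 ± 38.2 (difference -1.05, -1.85, -1.67 and -1.54). Rorb was at 444 ± 24.8, 519 ± 61.0, 580 ± 29.2 and 443 ± 41.2 (-1.23, -1.35, -1.38 and -1.20). Cux1 showed the smallest gap of the 5, at 2097 ± 59.1, 1347 ± 147, 1438 ± 172 and 1416 ± 77.8 (-0.76, -0.83, -0.81 and -0.84). The largest adjusted p among these 20 differences was 1.41e-05, for Cux1 at PWK 14.

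The layer 5 genes behaved otherwise. Bcl11b was at 5483 ± 343, 5089 ± 543, 5337 ± 493 and 4383 ± 393 in hippocampus, higher than in cortex by 0.64 ± 0.13 (adjusted p = 0.00214), 1.52 ± 0.09 (1.57e-07), 1.23 ± 0.06 (3.96e-08) and 0.87 ± 0.11 (7.74e-05) on the log2 scale. Etv1 was at 3910 ± 307 at PWK 1, no different beyond its spread from cortex (-0.03, 95% interval -0.21 to 0.15), and at 4705 ± 561, 4557 ± 295 and 4737 ± 181 later, higher by 0.38, 0.36 and 0.49 (adjusted p = 0.00274, 0.00954 and 0.000236). Fezf2 is the one whose level was close to equal in the 2 regions: 1495 ± 62.5, 943 ± 137, 1072 ± 104 and 1006 ± 40.1, with differences of 0.07, 0.15, -0.13 and 0.05 and 95% intervals that together span -0.34 to 0.36. Tle4 was lower in hippocampus at PWK 1 (2139 ± 73.5, difference -0.29 ± 0.05, adjusted p = 0.000799) and at PWK 28 (1490 ± 58.2, -0.18 ± 0.05, adjusted p = 0.022), the latter call being lost without the 2 cortical libraries high in Eomes (-0.13, adjusted p = 0.166), without replicate 2, 3 or 4, or with equal library totals. At PWK 7 and 14 it stood at 1701 ± 42.8 and 1777 ± 42.7, with a difference of -0.08 at both.

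Before PWK 14 no layer factor passed the test between KI and WT cortex. At PWK 1, 0 of 9 were called by limma beside 0.00546% of all genes, that is 1 of 18311, while 965 genes had an unadjusted p under 0.05. None of the 9 were called at PWK 7 either, beside 0.00545% of all genes, with 1477 of them under 0.05 before adjustment. Among the members, Cux2 at both ages and Rorb at PWK 7 had an unadjusted p under 0.05. Cux2 and Rorb had the largest differences of the 9 at both ages, each upward. Cux2 was at 3732 ± 323 in KI at PWK 1 (0.21, 95% interval 0.00 to 0.42, adjusted p = 0.908) and at 4783 ± 132 at PWK 7 (0.20, 0.06 to 0.35, adjusted p = 0.438). Rorb was at 1210 ± 53.2 (0.21, -0.02 to 0.45, adjusted p = 0.908) and 1581 ± 86.3 (0.26, 0.06 to 0.46, adjusted p = 0.481). The other 7 differed from WT by between -0.15 and 0.15. No member's 4 KI libraries lay wholly above or below its 4 WT libraries at either age, as those of 3.15% of all genes did at PWK 1 and 4.62% at PWK 7.

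Cux2 was higher and Fezf2 lower in KI cortex at both PWK 14 and PWK 28, and the other layer 5 factors and Cux1 were lower at PWK 28. At PWK 14, Cux2 rose and Fezf2 fell, 2 of 9 members called beside 5.18% of all genes tested (2.48% higher, 2.70% lower). Calls over the whole table were 455 higher and 496 lower, and 541 and 355 with equal library totals. At PWK 28, Cux2 rose and Fezf2, Etv1, Bcl11b and Cux1 fell, 5 of 9 beside 22.2% of all genes (12.2% higher, 10.0% lower). Here 2236 genes were higher and 1845 lower, and 1814 and 2338 with equal library totals. No direction of a called member changed with that scaling. The median log2 difference of the 9 was -0.21 at PWK 14 and -0.19 at PWK 28, where that of all genes was 0.00 at both. The sources are bulk tissue, in which fewer cells of a type and less RNA per cell cannot be told apart.

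Cux2 was the one member higher in KI. The WT libraries at PWK 14 held 3943, 4696, 4341 and 3731, and the KI libraries 6214, 5068, 5586 and 6199. Every KI value was above every WT value. The log2 difference was 0.47 ± 0.09 (95% interval 0.28 to 0.66, 1.38-fold, adjusted p = 0.0144). At PWK 28 WT libraries held 4236, 3216, 3675 and 3485 and KI libraries 4103, 6202, 5193 and 5053, so that KI replicate 1 lay within the WT range and the other 3 above it. The difference was 0.48 ± 0.12 (0.22 to 0.75, 1.40-fold, adjusted p = 0.0164). The calls were lost without WT replicate 1 at PWK 14 (adjusted p = 0.0535) and without WT replicate 2 at PWK 28 (adjusted p = 0.0502).

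Its paralog Cux1 went the other way at PWK 28. The WT libraries held 2630, 2393, 2409 and 2694 and the KI libraries 1998, 2433, 1915 and 2116, with KI replicate 2 inside the WT range. The difference was -0.26 ± 0.08 (-0.44 to -0.09, adjusted p = 0.0393), and it was no longer called in 7 of the 8 fits that left out 1 library, with adjusted p between 0.0052 and 0.109 over the 8. At PWK 14 Cux1 read 2411 ± 224 in KI (-0.07, -0.25 to 0.11, adjusted p = 0.714). Rorb did not pass at either age, with 1313 ± 105 at PWK 14 (-0.21, -0.38 to -0.04, adjusted p = 0.154) and 957 ± 137 at PWK 28 (-0.10, -0.36 to 0.16, adjusted p = 0.582).

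Fezf2 was the member with the largest fall at both ages. At PWK 14 the WT libraries held 1267, 1322, 1114 and 992 and the KI libraries 696, 729, 948 and 788, with no overlap. The difference was -0.57 ± 0.11 (95% interval -0.82 to -0.32, 0.673-fold, adjusted p = 0.0189). At PWK 28 WT held 814, 1017, 1064 and 1012 and KI 534, 650, 651 and 633, again with no overlap, and the difference was -0.66 ± 0.10 (-0.89 to -0.43, 0.633-fold, adjusted p = 0.00176). The KI mean of 617 ± 56.2 at PWK 28 was the lowest Fezf2 mean of the 16 groups. The call at PWK 28 held under all 16 alternatives, and that at PWK 14 was lost without KI replicate 2, WT replicate 1 or WT replicate 2 (adjusted p up to 0.0665).

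Etv1 and Bcl11b fell at PWK 28. Etv1 was at 3124, 2984, 3830 and 3616 in WT and at 1798, 2726, 2126 and 2605 in KI, every KI value being below every WT value. The difference was -0.56 ± 0.13 (-0.85 to -0.27, 0.677-fold, adjusted p = 0.0126) and the call held in all 8 fits that left out 1 library. The KI libraries of Etv1 at PWK 14 held 2670, 2617, 3594 and 2988 against 2934 to 4148 in WT, which overlap (-0.27, -0.53 to -0.01, adjusted p = 0.218). Bcl11b was at 1882, 2427, 2400 and 2945 in WT at PWK 28 and at 1566, 2004, 1673 and 1902 in KI, with an overlap between the lowest WT library and the 2 highest KI libraries. Its difference was -0.42 ± 0.13 (-0.70 to -0.14, 0.746-fold, adjusted p = 0.0358), lost in 5 of the 8 fits that left out 1 library (adjusted p between 0.0112 and 0.0907). At PWK 14 Bcl11b read 2129 ± 432 in KI (-0.11, -0.37 to 0.15, adjusted p = 0.67), a group in which the Drd2-high replicate 2 was highest at 2657 and replicate 4 lowest at 1622. At PWK 28 the KI libraries highest in immediate early genes, replicates 1 and 3, held the lowest values of Etv1, Bcl11b and Cux1. Without replicate 1, and likewise without replicate 3, 3 of the 5 members remained called, and the part of those genes in these differences was not tested.

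No layer 6 factor passed the test in KI cortex. Tle4 at PWK 28 came nearest. At PWK 14 Tle4 was at 1391, 1850, 1593 and 1351 in KI against 1817 to 1947 in WT (-0.29, -0.49 to -0.09, adjusted p = 0.101). At PWK 28 it was at 1407 to 1529 in KI against 1554 to 1818 in WT, without overlap (-0.19, -0.34 to -0.05, adjusted p = 0.0564). With all 64 libraries in 1 fit both of these passed (adjusted p = 0.000988 and 0.0125). Tle4 also passed at PWK 14 without the Drd2-high KI replicate 2 (-0.38, adjusted p = 0.0282), and at PWK 28 in 6 of 16 alternatives in all, with adjusted p between 0.0125 and 0.338 over the 16. Tbr1 was at 4177, 4321, 5058 and 4834 in KI at PWK 14, below all WT libraries at 5073 to 5460 (-0.21, -0.36 to -0.07, adjusted p = 0.0966). It passed there without KI replicate 3 (adjusted p = 0.0487). At PWK 28 Tbr1 was at 3287 to 5238 in KI around the WT range of 3957 to 4252 (0.09, -0.17 to 0.36, adjusted p = 0.628). Its KI spread at PWK 28, an SD of 847, was far wider than the WT SD of 135. Foxp2 read 558 ± 149 at PWK 14 (0.16, -0.17 to 0.50, adjusted p = 0.602, and -0.01 without the Drd2-high KI replicate 2) and 447 ± 89.7 at PWK 28 (-0.14, -0.44 to 0.17, adjusted p = 0.516). Genotypes did not overlap for 3 members at PWK 14 (Cux2 above, Fezf2 and Tbr1 below) beside 14.2% of all genes, and 3 at PWK 28 (Fezf2, Etv1 and Tle4 below) beside 25.8%.

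**Figure D3:**
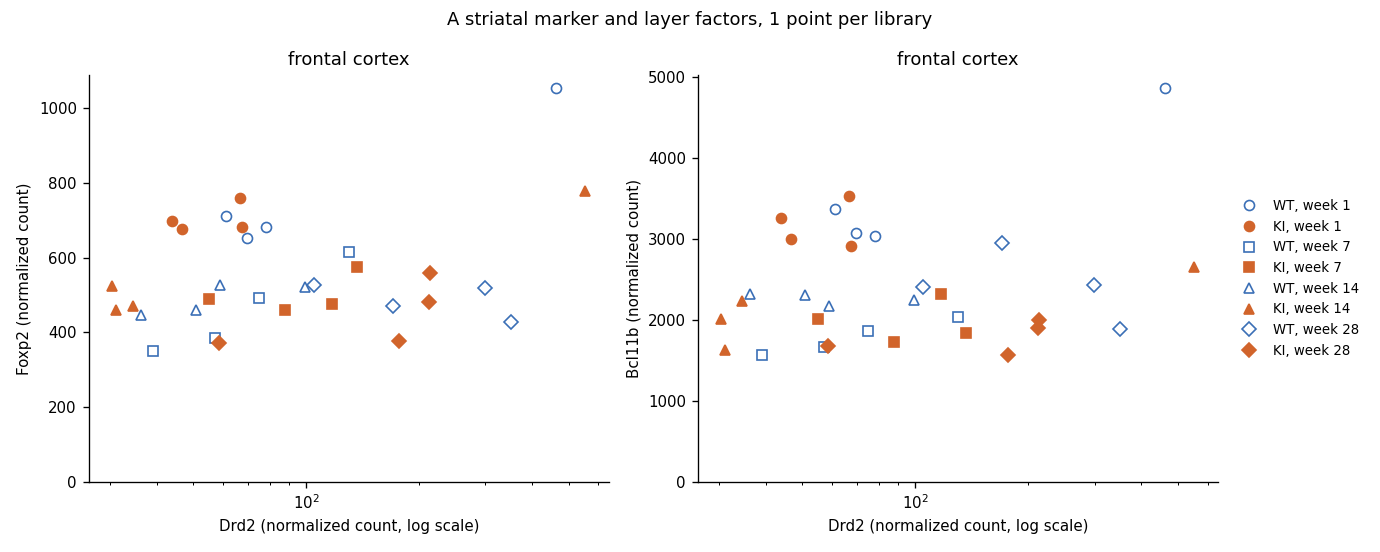
Foxp2 (left) and Bcl11b (right) against the striatal marker Drd2 in each cortical library, all in normalized counts with Drd2 on a log10 horizontal axis, WT as open blue and KI as filled orange symbols whose shape gives the age. The cortical libraries with Drd2 at 461 and 554 hold the highest values of their ages for Foxp2, 1053 and 777, and for Bcl11b, 4859 and 2657. The next highest in Drd2, WT replicate 1 at PWK 28 (352), holds the lowest WT values of its age, 429 for Foxp2 and 1882 for Bcl11b.

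Several calls in cortex were lost without the libraries high in Drd2 or Eomes. At PWK 14, where this took out 3 of the 8 libraries, no member was called, while the differences were larger than with all libraries for Cux2 (0.60, adjusted p = 0.0682) and Fezf2 (-0.68, adjusted p = 0.0881), and the genes called over the whole table went from 951 to 85. At PWK 28, where this took out 2 WT libraries, Fezf2 remained called (-0.57, adjusted p = 0.0409), while Cux2 (0.46, adjusted p = 0.121), Etv1 (-0.42, adjusted p = 0.14), Bcl11b (-0.27, adjusted p = 0.257) and Cux1 (-0.25, adjusted p = 0.183) were not. The differences of these members had the same sign as before, in groups of 2 to 4 libraries. The WT libraries kept at PWK 28, replicates 1 and 2, held Drd2 at 352 and 299, against 105 and 170 in those taken out. Their striatal marker sums were 14033 and 12691, against 8437 and 9926 in those taken out and 11471 to 14993 in KI. The alternative at PWK 28 thus did not remove the WT libraries highest in striatal markers. The summed level of 8 striatal markers was 23006 in KI replicate 2 and 12582 in KI replicate 1 at PWK 14, against 6705 to 8271 in the other 6 libraries. That of 4 olfactory bulb markers was 2755 and 2944 in WT replicates 3 and 4 and 1041 in KI replicate 1 at PWK 28, against 201 to 521 in the other 5. The 2 WT libraries were high in Cdhr1 (1576 and 1698) and Doc2g (698 and 713) as well as Eomes. KI replicate 1 held 298 of Cdhr1 and 59.8 of Doc2g, and most of its sum came from Trh. Eomes was at 0 in KI replicate 2 and no higher than 13.6 in the other KI libraries at that age.

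Markers of other neurons also differed between the genotypes. The summed level of 7 interneuron markers was 24144 to 32063 in KI cortex at PWK 14 against 19282 to 20927 in WT, and 30557 to 45538 against 22145 to 28370 at PWK 28, without overlap at either age. At PWK 28, Sst (log2 difference 1.22), Gad2 (1.15), Slc32a1 (0.65) and Pvalb (0.39) of that list rose and Vip (-0.66) fell. The sum of 5 excitatory markers, which include Tbr1, was 155703 to 174505 in KI against 182686 to 202420 in WT at PWK 14, and 138430 to 147598 against 145164 to 157336 at PWK 28. Members of that list went both ways. Camk2a, a calcium-dependent kinase, fell at both ages (-0.46 and -0.72), while Neurod2 rose at both (0.46 and 0.43). Slc17a7, the vesicular glutamate transporter VGLUT1, was at 49233 to 74576 in KI against 44075 to 47498 in WT at PWK 14 (0.30, adjusted p = 0.162) and rose at PWK 28 (56223 to 77637 against 34747 to 40205, 0.89). The sum of 5 pan-neuronal markers overlapped at PWK 14 (140640 to 157132 in KI, 137521 to 150399 in WT) and was higher in KI at PWK 28 (138506 to 147295 against 122247 to 138218). The part of these markers in the layer factor differences was not tested.

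The layer factors can be set beside other regulators of cortical projection neurons. Of 23 such factors, 2 rose and 4 fell in KI cortex at PWK 14 (median log2 difference -0.17), and 3 rose and 3 fell at PWK 28 (median -0.02). Nr4a2, an orphan nuclear receptor of claustrum and deep-layer neurons, fell at both ages, from 449 ± 103 in WT to 196 ± 66.7 in KI at PWK 14 (-1.22) and from 392 ± 107 to 196 ± 57.6 at PWK 28. So did the LIM-domain cofactor gene Ldb2 (-0.65 and -0.99) and Bhlhe22, a basic helix-loop-helix repressor (-0.60 and -0.82). Neurod2, a factor of excitatory neurons, rose at both (0.46 and 0.43), with Zfpm2 (0.35) rising at PWK 14 and Sox5, a regulator of deep-layer neurons (0.60), and Zfp703 (0.49) at PWK 28. The list thus held genes in both directions, with its median near that of all genes at PWK 28.

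Among paralogs of the 9, of which 12 were tested, none rose and 1 fell at PWK 14, namely Etv5 (-0.58), an ETS factor closely related to Etv1. At PWK 28 none rose and 4 fell: Tle3 (-0.61), Etv5 (-0.57), Tle2 (-0.37) and Foxp1 (-0.27), with a list median of -0.34. Etv5 was thus lower at both ages and Etv1 at PWK 28. Tle2 and Tle3, like Tle4, are Groucho co-repressors.

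Layer markers that are not transcription factors moved in both directions too. At PWK 14, 4 of 17 rose and 3 fell (median 0.09), and at PWK 28, 4 rose and 6 fell (median -0.29). The layer 6 genes Nxph4 (1.14 at PWK 14 and 1.87 at PWK 28), Syt6 (0.99 and 1.08) and Ntsr1 (0.93 and 0.86), known from corticothalamic and layer 6b neurons, rose at both ages while Tbr1, Tle4 and Foxp2 did not pass. Otof (-1.19 and -2.95), Lamp5 (-0.75 and -1.86) and Crym (-0.87 and -0.89), which mark upper layers or deep-layer subsets, fell at both, as did Rspo1 at PWK 28 (-1.11), and Lamp5 is also a marker of a class of interneurons. Of the 7 immediate early genes, 0 were called by limma at either age, with median differences of -0.17 and -0.89. Of these, Arc at PWK 28 had an unadjusted p under 0.05 (-1.37, adjusted p = 0.0995).

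**Figure D4:**
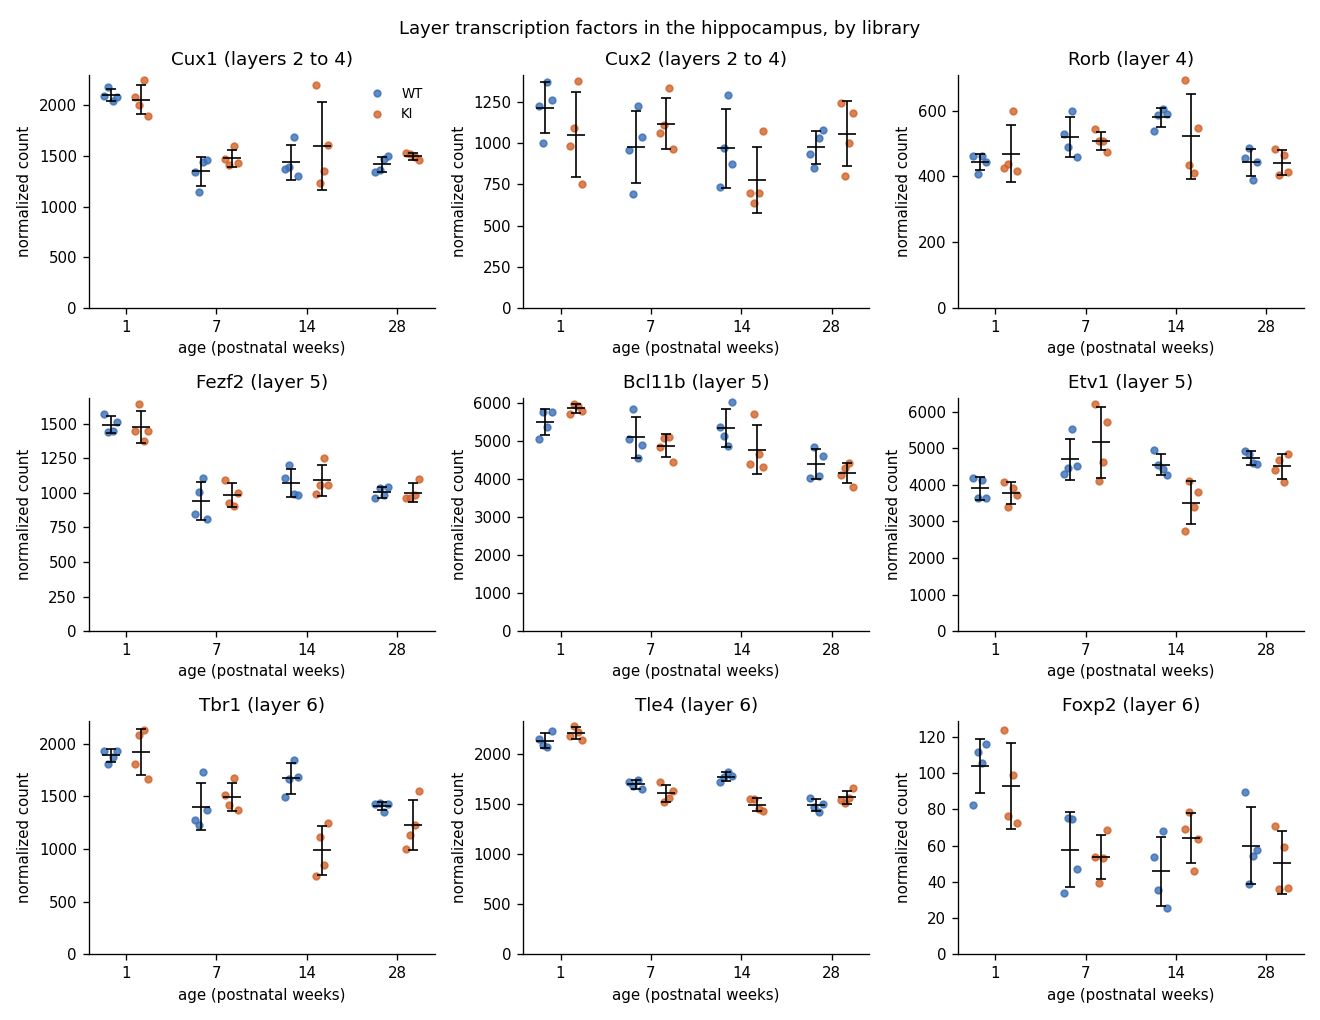
Normalized count of each of the 9 layer factors in hippocampus (vertical axis, 1 panel per gene, each with its own scale) against age in weeks, with WT libraries in blue and KI libraries in orange, 1 dot per library and a black bar for the mean ± SD of 4. At PWK 14 the KI dots of Tbr1 (741 to 1248) lie below all WT dots (1491 to 1842).

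In WT hippocampus the drop after the first week was shared by some of the same factors. From PWK 1 to PWK 7, 7 of 9 passed the test beside 62.2% of all genes. Cux1 (log2 change -0.64 ± 0.08, adjusted p = 1.68e-06), Fezf2 (-0.67 ± 0.09, 2.08e-06), Tle4 (-0.33 ± 0.04, 1.11e-06), Foxp2 (-0.90 ± 0.31, 0.018) and Tbr1 (-0.44 ± 0.08, 0.000182) fell. Rorb (0.22 ± 0.08, 0.0305) and Etv1 (0.26 ± 0.07, 0.00411) rose. The call on Foxp2 was lost without replicate 4 (0.081) and that on Rorb without replicate 1, 2 or 3, with equal library totals or with all libraries in 1 fit (up to 0.113). Tbr1 therefore fell in hippocampus over the interval in which it rose in cortex, and Bcl11b, which fell in cortex, went from 5483 ± 343 to 5089 ± 543 (-0.11, 95% interval -0.28 to 0.06). The difference between regions in these changes with age was not tested. From PWK 7 to PWK 14 no member was called by limma beside 5.57% of all genes, with Tbr1 (0.26, adjusted p = 0.0792) and Fezf2 (0.19, adjusted p = 0.217) at an unadjusted p under 0.05. From PWK 14 to PWK 28 Rorb (-0.39 ± 0.08, adjusted p = 0.00678), Bcl11b (-0.28 ± 0.08, 0.0286) and Tle4 (-0.25 ± 0.04, 0.000788) fell beside 11.6% of all genes. Without replicate 4 neither Rorb (0.0607) nor Bcl11b was called, and Bcl11b was not without replicate 1 either (up to 0.191).

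In KI hippocampus Tbr1, Tle4 and Etv1 were lower at PWK 14, and no member was called at the other 3 ages with all libraries in the fit. At PWK 1 and 7, 0 of 9 members were called by limma, beside 0.0109% of all genes (with an unadjusted p under 0.05 in 1003 genes) and 0.0218% (in 1144 genes). These were 3 of 9 at PWK 14, with none higher, beside 15.6% of all genes (7.64% higher, 7.95% lower). At PWK 28, 0 of 9 were called by limma beside 15.8%, and no member had an unadjusted p under 0.05 at PWK 1, 7 or 28. The median difference of the 9 was -0.18 at PWK 14 and -0.01 at PWK 28, against 0.01 and 0.00 for all genes. Libraries of these 3 genes at PWK 14 did not overlap between genotypes, as those of 23.8% of all genes did not. At PWK 1, 7 and 28 every member overlapped, beside 3.26%, 3.87% and 21.5% of genes without overlap.

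Tbr1 showed the largest KI difference of any called member in either region. Its WT libraries at PWK 14 held 1491, 1661, 1842 and 1680 and the KI libraries 741, 1115, 844 and 1248. The difference was -0.78 ± 0.15 (95% interval -1.13 to -0.44, 0.581-fold, adjusted p = 0.0102), and it was called under all 15 alternatives. At PWK 28 the KI libraries held 1000, 1131, 1230 and 1550, of which 3 were below the WT range of 1352 to 1432 and 1 above it (-0.22, -0.46 to 0.02, adjusted p = 0.203). Without that last library, KI replicate 4, the difference was -0.34 and was called (adjusted p = 0.0129). The 2 KI libraries highest in immediate early genes at PWK 14, replicates 1 and 3, held the lowest values of Tbr1 and of Etv1, and the part of those genes in these differences was not tested.

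Tle4 and Etv1 showed smaller falls. Tle4 was at 1720 to 1823 in WT and at 1550, 1554, 1454 and 1431 in KI at PWK 14 (-0.25 ± 0.05, 0.842-fold, adjusted p = 0.0166), a call lost without WT replicate 4 (adjusted p = 0.0509). At PWK 28 it read 1570 ± 64.5 in KI and 1490 ± 58.2 in WT (0.08, -0.04 to 0.19). Etv1 was at 4970, 4542, 4433 and 4284 in WT and 2753, 4112, 3386 and 3804 in KI at PWK 14 (-0.39 ± 0.11, 0.764-fold, adjusted p = 0.0475), lost in 6 of the 8 fits that left out 1 library. Etv1 at PWK 28 was at 4507 ± 336 in KI and 4737 ± 181 in WT (-0.07, -0.20 to 0.05). Without KI replicate 1, the library highest in astrocyte markers, all 3 remained called at PWK 14 (Tbr1 -0.66, adjusted p = 0.00762, Tle4 -0.26, 0.013, Etv1 -0.28, 0.0368). With same-numbered mice as a block, Tbr1 alone was called, and Tle4 and Etv1 had adjusted p = 0.0671 and 0.0951.

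The other 6 did not pass at PWK 14. Fezf2, which fell in KI cortex, was at 992, 1058, 1256 and 1056 in KI hippocampus against 985 to 1204 in WT (0.02, -0.19 to 0.24). Cux2 was at 699, 638, 700 and 1072 against 733 to 1294 (-0.32, -0.76 to 0.13, adjusted p = 0.304). Cux1 (0.12, -0.25 to 0.50), Rorb (-0.18, -0.53 to 0.16) and Bcl11b (-0.17, -0.39 to 0.05) had intervals that span 0, and Foxp2, at 64.3 ± 13.8 in KI, gave 0.55 with an interval of -0.16 to 1.25. Cux1 in KI replicate 1 stood at 2203, above the other 7 libraries at 1229 to 1690.

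Cell type markers moved in the same groups. The summed level of 4 CA1 pyramidal neuron markers was 7588 to 11518 in KI and 10587 to 11447 in WT at PWK 14, and 3 of the 4 fell (Fibcd1 -1.66, Pou3f1 -0.55, Spink8 -0.42). Of 4 dentate granule cell markers, Lct (-1.17) and Dsp (-0.66) fell, while Prox1 (0.09) and C1ql2 (-0.10) did not pass, and the sum of the 4 was 6569 to 10205 in KI and 8654 to 12895 in WT. The sum of 5 astrocyte markers was 204148 to 300473 in KI against 130862 to 156811 in WT at PWK 14, and 185184 to 216011 against 131794 to 140417 at PWK 28. The part of these markers in the fall of Tbr1, Tle4 and Etv1 was not tested.

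The wider lists in hippocampus showed changes at both ages. Of the 23 other projection neuron factors, 5 rose and 7 fell at PWK 14 (median -0.33), among them Zfp703 (1.20), Neurod2 (0.56) and Id2 (0.55) upward and Nr4a2 (-0.98) and Lhx2 (-0.64) downward. At PWK 28, 7 rose and 3 fell (median -0.12), among them Zfp703 (0.56), Mef2c (0.38) and Sox5 (0.38) upward and Nr4a2 (-0.97), Bhlhe22 (-0.34) and Bcl6 (-0.29) downward. Of the 12 paralogs tested, Tbx21, a T-box relative of Tbr1 (1.77), and Tle3 (0.36) rose at PWK 14, where Tle2 (-0.95), Etv4 (-0.61) and Bcl11a (-0.41) fell. At PWK 28 Tle1 (0.22) rose and Tle2 (-0.55) and Etv5 (-0.44) fell. Layer markers were called 3 higher and 4 lower at PWK 14 and 4 higher and 5 lower at PWK 28 of 17, with Nxph4 (2.54 and 2.28), Syt6 (1.09 and 0.59) and Rprm (0.79 and 1.28) higher and Otof (-2.27 and -1.72), Lamp5 (-0.77 and -0.61) and Scnn1a (-0.78 and -0.57) lower at both. Nr4a2, Otof and Lamp5 were thus lower, and Nxph4 and Syt6 higher, in KI of both regions at PWK 14 and 28.

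**Figure D5:**
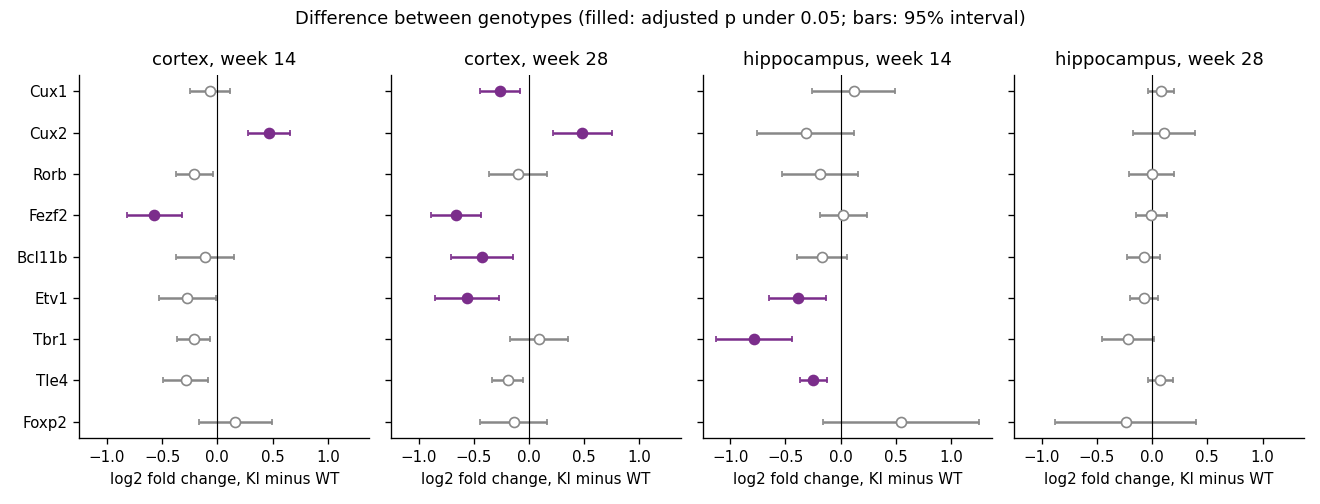
Log2 difference of KI minus WT (horizontal axis) for each of the 9 layer factors with its 95% interval, in 4 panels for cortex and hippocampus at PWK 14 and 28. Filled symbols have an adjusted p under 0.05: Cux2 and Fezf2 in cortex at PWK 14, those and Etv1, Bcl11b and Cux1 at PWK 28, and Tbr1, Tle4 and Etv1 in hippocampus at PWK 14.

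Whether the KI difference itself differed between the regions was tested by an interaction term. At PWK 28 it did for Fezf2, with a KI difference 0.65 ± 0.12 higher in hippocampus than in cortex (95% interval 0.40 to 0.91, adjusted p = 0.00507), 1 of 9 members beside 4.57% of all genes. The term at PWK 14 for Fezf2 was 0.59 ± 0.16 (adjusted p = 0.0518), for Cux2 -0.78 ± 0.23 (0.077) and for Tbr1 -0.57 ± 0.18 (0.0935), and none was called beside 2.85% of all genes. Both regions came from the same mice, and with the mouse as a block Fezf2 (adjusted p = 0.00532) and Cux2 (0.0299) were called at PWK 14, and Fezf2, Etv1 (0.041) and Cux1 (0.0399) at PWK 28. Fezf2 at PWK 28 was thus lower in KI cortex, with close means in hippocampus (1003 in KI and 1006 in WT). The interaction call at PWK 28 was lost without replicate 3 or without replicate 4 (adjusted p up to 0.068). No member was called by limma at PWK 1, where 0% of all genes were called and 668 had an unadjusted p under 0.05, nor at PWK 7 beside 0.00543%.

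Whether it differed between PWK 14 and PWK 28 was tested in each region, and 0 of 9 members were called in either. In cortex 0% of all genes were called by limma, with 2770 at an unadjusted p under 0.05, and in hippocampus likewise 0%, with 2274. Etv1 in cortex had a term of -0.29 (95% interval -0.69 to 0.12) and Bcl11b one of -0.31 (-0.71 to 0.09), so that their calls at PWK 28 alone are not shown to differ from PWK 14. In hippocampus Tle4 (0.32 ± 0.07, adjusted p = 0.119) and Tbr1 (0.57 ± 0.20, adjusted p = 0.273) did not pass either, and with Etv1 (0.32, adjusted p = 0.355) they were the 3 members at an unadjusted p under 0.05.

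The pattern of each factor over the 16 group means was compared with that of 12805 genes whose mean level reached 100, as a description in which the groups of 1 region share much. Fezf2 was most like Zfp618 (Pearson r = 0.956), Stk36 (0.941) and Nectin1 (0.939), and Etv1 most like Camkv (0.964), Ryr1 (0.931) and Itga4 (0.918). These were the lowest leading values of the 9. Cux2 was most like Dpp10 (0.990), Fgf12 (0.984) and Cobl (0.983), Tbr1 like Csgalnact1 (0.987), 9130024F11Rik (0.982) and Dpp10 (0.980), and Cux1 like Atrnl1 (0.992), Vopp1 (0.992) and Etv6 (0.980). Foxp2 ran with Camk1 (0.990), Trbc2 (0.989) and Hs3st2 (0.985), and Rorb with Gm20878 (0.982), Phf24 (0.980) and Galt (0.976). Bcl11b, alone higher in hippocampus throughout, ran with Tspan18 (0.986), Sall2 (0.984) and Shisa6 (0.984), and Tle4 with Trim46 (0.975), Nyap1 (0.974) and Mtmr14 (0.972). Among the 9 themselves, Cux2 and Tbr1 were closest (0.970) and Cux2 and Bcl11b most opposed (-0.926).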

How the data were processed

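Bulk RNA-seq was measured in 64 mouse libraries, 4 for each of 16 groups of region, age and genotype. The deposited table holds a normalized signal per gene that the authors made with Salmon, tximport and DESeq2 on GRCm38. Per the labels, Salmon 0.11.2, R 3.6.0 and DESeq2 1.19.11 were used with a stranded mRNA kit, while the study's methods name other versions and a total RNA kit, and which holds was not resolved. Whole reads could not be recovered (24.9 to 55.6% of low values within 0.1 read of a whole number), so no count model was fitted and low genes carry an unknown counting error.

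Values were tested as log2(value + 1) with limma 3.58.1 (trend, R 4.3.3), keeping genes with a mean of at least 1 in the libraries of a fit, in 24 comparisons, with Benjamini-Hochberg adjustment over all genes of each. Fold changes are on that scale and understate those of low genes. Genotype comparisons fitted 8 libraries, changes with age the 16 WT libraries of a region, region differences 8, and interactions 16. The fit was tested on simulated data. The alternatives were a pseudocount of 8, no filter, a filter scaled to the library total, equal library totals, all libraries in 1 fit, a replicate block, quality weights, and leaving out libraries. The libraries high in Drd2 or Eomes (over 50 and over 3 times the median of the 8) were chosen after seeing the data.

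The members and gene lists were chosen with earlier results of these data known. Named were the 9 members, Cyfip2, up to 3 genes per direction of each other list among those called, by size, and the 3 genes most like each member, while 1 list gene is not reported here and further list members and marker levels were chosen after their values were seen. Both regions came from each mouse, so same-numbered libraries were taken as 1 mouse. Their deviations from the group means correlated at 0.140 on average against -0.046 for different numbers (17 of 32 pairs over 0.1), with none of the 8 WT pairs at PWK 7 and 28 doing so. Gene symbols of 18420 of the 18432 genes matched the annotation. No sequence of proteins was used here, and no upstream window for Foxp2.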

Additional observations from a re-analysis of the deposited data

Results flagged for a closer look

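In 10 of 144 groups of 4 libraries, 1 library of a layer factor stood apart from the other 3, its gap to the nearest taking a larger part of the range than Dixon's 95% critical value. Chance gives about 1 in 20. In cortex these were Cux1 at 4153 in a KI library at PWK 1, Foxp2 at 1053 in WT replicate 1 at PWK 1, Tbr1 at 4480 in a KI library at PWK 7, Rorb at 840 in a WT library at PWK 28 and Fezf2 at 534 in a KI library at PWK 28. In hippocampus they were Rorb at 598 in a KI library at PWK 1, Etv1 at 5537 in a WT library at PWK 7, Cux2 at 1072 in a KI library at PWK 14, and Tbr1 at 1352 in a WT library and Fezf2 at 1102 in a KI library at PWK 28. The cortical Foxp2 value came from the library with Drd2 at 461 and Adora2a at 793.

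The KI difference of Fezf2 at PWK 28 differed between hippocampus and cortex by 0.65 on the log2 scale (adjusted p = 0.00507, limma interaction term), with KI below WT in all libraries of cortex and overlapping genotypes in hippocampus.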

How the results depend on the processing

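Over the single values of the 9 members, 2696 of 2799 alternatives kept the side of the threshold or moved by less than the spread, 55 lost and 34 gained a call, 14 moved further and no called value changed sign. Counts of members called stayed within 1.5 times of those given unless named here, and the cause of each move was not tested. The edgeR and DESeq2 alternative was not run, since the table holds no counts, and low genes could not be weighted by depth.

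Without the cortical libraries high in Drd2 or Eomes, members called in KI cortex went from 2 to 0 at PWK 14 and from 5 to 1 at PWK 28, and in WT cortex from 1 to 2 between PWK 7 and 14 and from 2 to 1 between PWK 14 and 28. All genes called went from 951 to 85, 4081 to 1417 and, for PWK 28 against 14, 2816 to 1544, from 525 to 52 for the region interaction at PWK 14 and from 1 to 0 in KI cortex at PWK 1. Fewer samples were fitted.

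With the replicate block, members called went from 3 to 1 in KI hippocampus at PWK 14, and in the region interaction from 0 to 2 at PWK 14 and from 1 to 3 at PWK 28. All genes called went from 2870 to 1788 in KI hippocampus at PWK 14, from 1 to 0 and 2 to 0 in cortex and hippocampus at PWK 1, from 1 to 0 for the region interaction at PWK 7 and from 0 to 2 for the age interaction in hippocampus. Besides the calls named in the report and Cux1 in KI cortex at PWK 28 (adjusted p = 0.0599) and Cux2 from PWK 1 to 7 in WT hippocampus (0.0248), the block changed no member's call. KI and WT mice of 1 number share only that number: their deviations correlated at 0.026 on average (different numbers -0.009), over 0.1 in 10 of 32 pairs, and 12 of 32 libraries correlated best with their own number.

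The region interaction had 1 member called at PWK 14 and 2 at PWK 28 with a pseudocount of 8 or with the stricter filter, 3 and 2 with all 64 libraries in 1 fit, and 1 and 4 with quality weights. With all libraries in 1 fit, 2 members passed the age interaction in hippocampus. That fit called 1946 genes in KI cortex and 6050 in KI hippocampus at PWK 14, 4 and 0 in cortex at PWK 1 and 7, and 0 and 1 in hippocampus at PWK 1 and 7. It called 575 and 405 genes between PWK 7 and 14 in WT cortex and hippocampus, 1368 between PWK 14 and 28 in hippocampus, 2000 and 1320 in the region interaction at PWK 14 and 28, and 913 and 469 in the age interaction of cortex and hippocampus. Quality weights gave 1027 in the region interaction at PWK 14, 0 at PWK 7 and 908 in the age interaction of cortex, and equal library totals gave 9 there. A pseudocount of 8 and the stricter filter each gave 0 in KI cortex and 1 in KI hippocampus at PWK 1, and the filter gave 2 in hippocampus and 0 in the region interaction at PWK 7.

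Leaving out 1 library gave 0 to 3 members called in KI cortex at PWK 14 and 2 to 6 at PWK 28, 1 to 3 in KI hippocampus at PWK 14 and 0 to 1 at PWK 28. In WT it gave 0 to 1 between PWK 7 and 14 in either region and 1 to 3 between PWK 14 and 28 in hippocampus, and in the region interaction 0 to 3 at PWK 28. All genes called ranged over 0 to 1, 1 to 4 and 339 to 1001 in KI cortex at PWK 1, 7 and 14, and over 0 to 4, 4 to 7, 1456 to 3205 and 1881 to 2880 in KI hippocampus at the 4 ages. They ranged over 376 to 474 and 1224 to 2171 for the later WT intervals in cortex and 229 to 980 and 558 to 1983 in hippocampus. The region interaction gave 0 to 1, 0 to 2, 63 to 457 and 182 to 950 at the 4 ages, and the age interaction 0 to 153 in cortex and 0 to 2 in hippocampus.

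Equal library totals turned the split of all calls from 1640 higher and 1271 lower to 1295 and 1892 in KI hippocampus at PWK 28, from 1248 and 1568 to 1873 and 1089 between PWK 14 and 28 in WT cortex, and from 844 and 1283 to 1184 and 922 in hippocampus. The same scaling moved it from 2954 and 3424 to 4405 and 2213 between regions at PWK 1, and from 303 and 222 to 264 and 295 in the region interaction at PWK 14.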
